A study of Homo sapiens with 24 samples.

Results

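Transcripts of 8 genes of cholesterol synthesis and its control were followed in 24 RNA-seq libraries of human U2OS osteosarcoma cells. They are HMGCS1, IDI1, FDFT1, SQLE, LSS and DHCR7, which encode enzymes of the pathway, SREBF2, which encodes its main transcription factor, and INSIG1, which encodes a sterol-dependent brake on that factor. The genes were taken by name from the deposited count tables, 8 of 57820 genes counted. The rule itself used no measured value, but the genes were chosen with earlier results of these data known. On hg19 they lie on chromosomes 5 (HMGCS1), 10 (IDI1, at 1085848 to 1095110), 8 (FDFT1, at 11653082 to 11696818, and SQLE, at 126010739 to 126034525), 21 (LSS), 11 (DHCR7, at 71139239 to 71163914), 22 (SREBF2, at 42229109 to 42303312) and 7 (INSIG1, at 155089486 to 155101945), and counts cover their exons. Genes of cholesterol uptake were not among the 8 and were kept as a list of their own.

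Cells make cholesterol from acetyl-CoA through mevalonate, farnesyl diphosphate, squalene and lanosterol. When sterols in the endoplasmic reticulum run low, SCAP escorts SREBP-2, the product of SREBF2, to the Golgi, where proteases release its active part, which enters the nucleus and raises transcription of the synthesis genes. When sterols are plentiful, INSIG proteins hold SCAP and SREBP-2 back, and INSIG1 is itself a target of SREBP-2. Much of this control acts on proteins, which transcript counts do not show.

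The 8 groups held 3 biological replicates each. Wild-type (WT) and ID3-knockout (ID3-KO) AID-DIvA cells, a U2OS derivative with a nuclease that can be induced to cut DNA at known sites, were either untreated or exposed for a day to mocetinostat, an inhibitor of class I histone deacetylases, and left for a further day in drug-free medium to recover. Wild-type and ID3-KO U2OS cells were either untreated or treated and collected without the recovery step, a stage inferred from the submitters' design text and the study's methods. The stage of collection therefore coincides with the cell line and the 2 cannot be told apart. The dose used for these samples, and whether the knockout lines are single clones, are not given in the sources used here. Titles and treatment labels of the AID-DIvA samples contradict each other, and the titles were followed. Among genes past the threshold with a log2 fold change beyond 1 in both cell lines, 690 of 760 in WT and 735 of 804 in ID3-KO cells moved the same way under that reading.

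Libraries held 37878751 to 76906266 counted reads. ID3, the targeted gene, was lower in ID3-KO than in WT libraries of untreated cells, at 32.6 to 38.8 against 48.7 to 52.3 CPM (counts scaled to library size) in AID-DIvA and at 29.1 to 32.1 against 51.6 to 79.7 CPM in U2OS. Its transcript was thus still counted in the knockout, and a count over the whole gene does not show the edit. Of 8 osteoblast lineage markers, 3 to 5 exceeded 1 CPM in a group. COL1A1 was at 830.5 to 2498 CPM, SPP1 at 14.9 to 61.2 CPM and RUNX2 at 11.8 to 47.5 CPM. ALPL was at 0.616 to 7.01 CPM and COL1A2 at 0.0513 to 1.37 CPM. BGLAP, SP7 and IBSP were at no more than 0.684, 0.114 and 0.403 CPM. Of 7 markers of other cell types found in the files, 1 to 2 exceeded 1 CPM in a group, and their summed level was 6.61 to 11.5 CPM, of which EPCAM made up most at 4.50 to 10.4 CPM. One library stood apart, WT untreated U2OS replicate 1, whose chi-square per gene against its 2 partners was 91.1 and 103 where the other 22 replicate pairs gave 2.79 to 27.3. Replicate 1 of both treated and recovered AID-DIvA groups stood apart less strongly, at 13.5 to 26.9 against 2.79 to 4.57 for their partners. The untreated ID3-KO AID-DIvA libraries differed as much among themselves. Their values were 12.6 for replicates 1 and 2, 11.9 for 1 and 3, and 27.3 for 2 and 3. Where leaving one of them out changed a call on the 8 genes, that is stated beside the result.

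The promoters of SREBF2, HMGCS1, INSIG1 and LSS are shown because SREBF2 encodes the factor itself, HMGCS1 had the widest treatment response, LSS the widest genotype difference, and INSIG1 reports on the sterol loop. They are RefSeq sequences on GRCh38.p14, 5′ to 3′ on the strand of the gene, while the count tables use hg19. Capitals mark the sterol regulatory element consensus TCACNCCAC, the CCAAT box (CCAAT or ATTGG) bound by NF-Y and the GC box (GGGCGG or CCGCCC) bound by SP1, each searched on both strands. The stretches lie at chr22:41832960-41833104 on the plus strand, chr5:43313496-43313637 on the minus strand, chr7:155297633-155297815 on the plus strand and chr21:46228795-46229018 on the minus strand. HMGCS1 has another start in the same reference, whose stretch at chr5:43313182-43313320 is not printed. It held 2 GC boxes and no CCAAT box.
SREBF2: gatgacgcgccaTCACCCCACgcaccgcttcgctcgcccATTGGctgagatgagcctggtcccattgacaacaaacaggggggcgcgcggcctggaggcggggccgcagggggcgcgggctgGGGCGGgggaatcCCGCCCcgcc
HMGCS1: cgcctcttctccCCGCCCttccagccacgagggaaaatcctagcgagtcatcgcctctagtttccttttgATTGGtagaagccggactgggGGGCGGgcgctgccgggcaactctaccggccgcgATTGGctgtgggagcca
INSIG1: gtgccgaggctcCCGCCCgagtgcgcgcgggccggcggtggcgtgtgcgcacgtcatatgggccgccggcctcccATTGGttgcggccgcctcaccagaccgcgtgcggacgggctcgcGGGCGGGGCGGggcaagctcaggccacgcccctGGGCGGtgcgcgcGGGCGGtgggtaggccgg
LSS: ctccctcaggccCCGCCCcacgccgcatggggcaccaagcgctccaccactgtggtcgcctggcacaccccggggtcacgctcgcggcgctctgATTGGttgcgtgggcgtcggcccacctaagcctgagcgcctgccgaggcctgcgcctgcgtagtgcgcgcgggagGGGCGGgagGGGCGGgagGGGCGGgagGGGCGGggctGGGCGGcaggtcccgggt
Of the 8 genes, 6 were searched in the promoter table, with 10 windows of 300 bases (250 before the start and 50 after it). FDFT1 and SQLE were not searched, so the counts below say nothing of their promoters. A CCAAT box was present in 7 and a GC box in 9 of the 10 windows, of which some belong to the same gene. Of all 35116 windows in the table, with no chromosome left out, 34.6% held a CCAAT box and 45.0% a GC box. Among these 6 genes the sterol element consensus was matched in SREBF2 alone, 133 bases before its start, and it was matched in 1.13% of all windows. Among the other synthesis enzymes, 12 of 14 were in the table, with 13 windows, of which 10 held a CCAAT box and 11 a GC box. A match is a run of letters and was not tested as a binding site.

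All 8 genes were transcribed in every library. Per kilobase of exonic length, the medians over the 24 libraries were 82.8 CPM per kb for HMGCS1, 78.2 for DHCR7, 72.9 for FDFT1, 69.9 for SQLE, 48.5 for SREBF2 and 41.8 for LSS, while INSIG1 at 13.7 and IDI1 at 8.37 lay well below. The level of LSS spanned 3.11-fold between its lowest and highest library, that of HMGCS1 2.57-fold and that of SREBF2 1.61-fold. All 8 had their highest group mean in U2OS cells, SREBF2 and LSS in untreated WT cells and the other 6 in treated cells. In the order of group means, HMGCS1 ran from treated WT U2OS (755 ± 48.8 CPM, SD) through treated ID3-KO U2OS (639 ± 12.6) to recovered WT (568 ± 50.03) and recovered ID3-KO AID-DIvA cells (417 ± 29.5). The libraries of these neighbours did not overlap, whereas recovered ID3-KO AID-DIvA overlapped the next group, untreated WT U2OS, and the untreated groups overlapped down to WT AID-DIvA. LSS formed 3 steps, WT U2OS cells (517 ± 40.6 untreated and 499 ± 6.41 treated), then ID3-KO U2OS with WT AID-DIvA cells (274 to 316), then ID3-KO AID-DIvA cells (197 ± 9.50 and 190 ± 11.8), with overlap within a step and none between steps.

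**Figure D1:**
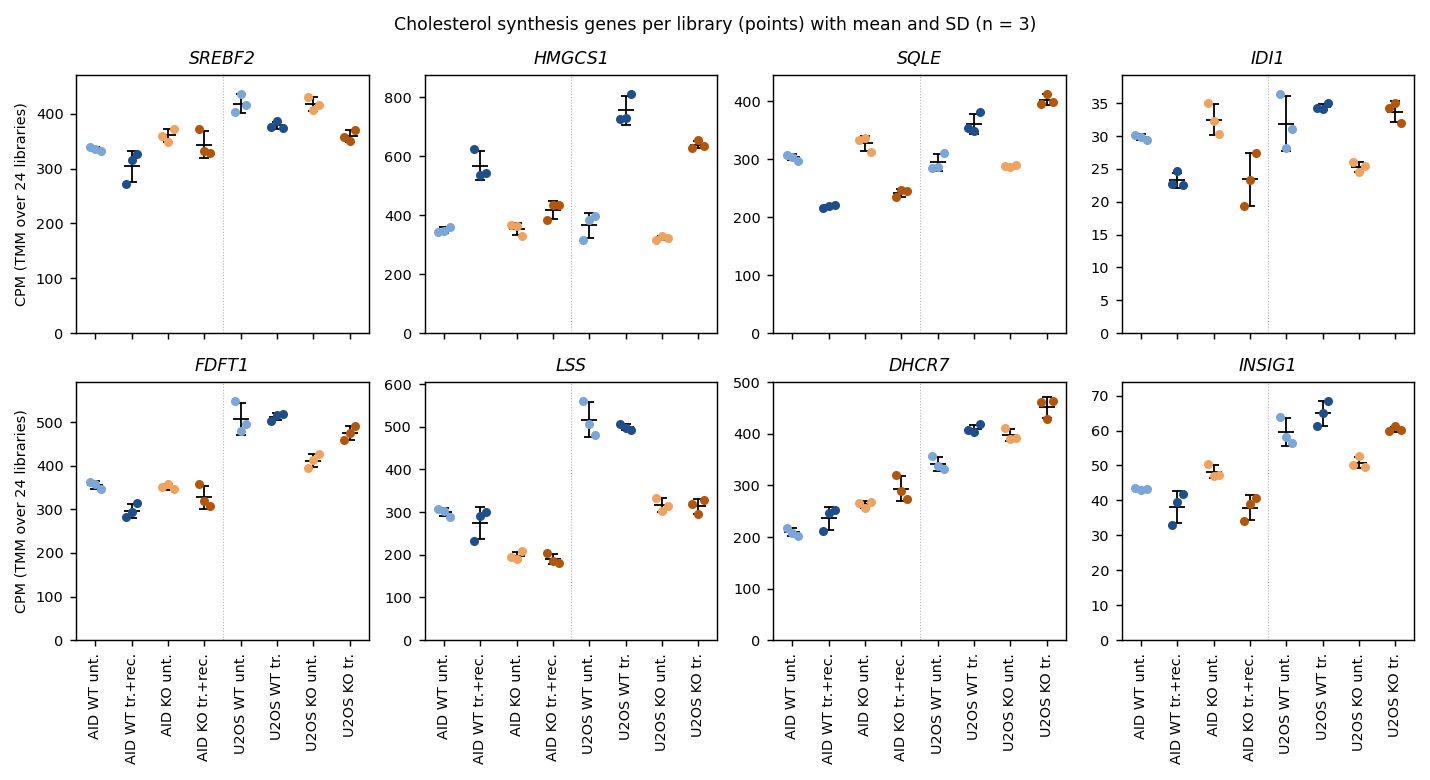
Level of each gene in CPM (vertical axis, from 0) in the 8 groups (horizontal axis), with AID-DIvA left and U2OS right of the dotted line. Points are libraries and bars the mean and SD of 3. HMGCS1 stands at 629 to 812 CPM in the 6 treated U2OS libraries and at 315 to 396 in the 6 untreated ones, and LSS is lower in ID3-KO (orange) than in WT (blue) cells of either line.

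HMGCS1 condenses acetoacetyl-CoA with acetyl-CoA at the entry of the pathway, and it rose in all 4 treatment comparisons. It lies on chromosome 5 at 43289497 to 43313614 on hg19. In WT U2OS cells it was counted at 316, 383 and 396 CPM untreated and at 725, 729 and 812 CPM treated. In ID3-KO U2OS cells it was counted at 315, 329 and 321 CPM untreated and at 629, 653 and 636 CPM treated. Treated and untreated libraries did not overlap in either genotype. The log2 fold change before recovery was 1.05 ± 0.10 (SE) in WT (adjusted p = 0.00011) and 0.99 ± 0.04 in ID3-KO cells (adjusted p = 1.4e-15), or 2.07-fold and 1.99-fold. HMGCS1 lay above 86.0% and 85.3% of the genes tested in these comparisons.

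Before recovery, the other enzymes moved up less or not at all. In WT U2OS cells 3 of the 8 genes rose, HMGCS1, SQLE and DHCR7, where 26.0% of all genes tested rose and 22.9% fell. None of the 8 fell by edgeR, by DESeq2 or at an unadjusted p below 0.05. In ID3-KO U2OS cells 6 of the 8 rose and SREBF2 fell, where 35.8% of all genes rose and 34.0% fell. The median log2 fold change over the 8 genes was 0.12 in WT and 0.23 in ID3-KO cells, beside 0.01 and 0.00 over all genes tested. A called log2 fold change beyond 1 was reached by HMGCS1 in WT cells, 1 of 8, where 18.6% of all genes reached it, and by 0 of 8 in ID3-KO cells, where 20.3% did.

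SQLE, the squalene epoxidase that catalyses a rate-limiting step, went from 286, 288 and 311 CPM to 354, 350 and 381 CPM in WT U2OS cells. In ID3-KO U2OS cells it went from 288, 287 and 290 CPM to 396, 413 and 398 CPM. Every treated library lay above every untreated one. The log2 fold change was 0.29 ± 0.07 in WT (adjusted p = 0.012) and 0.48 ± 0.04 in ID3-KO cells (adjusted p = 3.4e-10). The WT call was lost without treated replicate 1 (adjusted p = 0.051) and without treated replicate 3 (adjusted p = 0.071), with log2 values of 0.30 and 0.26.

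IDI1, which isomerises isopentenyl diphosphate, was counted at 36.5, 28.1 and 31.1 CPM in untreated and at 34.2, 34.1 and 34.97 CPM in treated WT U2OS cells. In ID3-KO U2OS cells it was counted at 26.1, 24.5 and 25.4 CPM untreated and at 34.207, 35.0042 and 32.0021 CPM treated. The WT groups overlapped through untreated replicate 1, the library that stood apart, and the ID3-KO groups did not overlap. The log2 fold change was 0.11 ± 0.11 in WT (adjusted p = 0.43) and 0.42 ± 0.05 in ID3-KO cells (adjusted p = 3e-07). Without untreated replicate 1 the WT value was 0.22 ± 0.05 (adjusted p = 0.00016).

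FDFT1, the squalene synthase, showed a log2 fold change of 0.01 ± 0.08 in WT (adjusted p = 0.92) and 0.21 ± 0.04 in ID3-KO U2OS cells (adjusted p = 0.00022). INSIG1 showed 0.12 ± 0.08 (adjusted p = 0.26) and 0.25 ± 0.05 (adjusted p = 3.8e-05). DHCR7, which makes cholesterol from its last precursor in one branch of the pathway, showed 0.26 ± 0.07 (adjusted p = 0.016) and 0.19 ± 0.04 (adjusted p = 0.00075). In ID3-KO cells these 3 genes rose with non-overlapping groups, whereas in WT cells the call for DHCR7 was lost when any one library other than untreated replicate 1 was left out (adjusted p = 0.055 without untreated replicate 2, 0.066 without untreated replicate 3, and 0.074, 0.065 and 0.079 without treated replicates 1, 2 and 3, with log2 values of 0.23 to 0.27).

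SREBF2 itself fell in treated ID3-KO U2OS cells. Its level in ID3-KO U2OS cells was 432, 407 and 415 CPM untreated and 358, 350 and 370 CPM treated, a log2 fold change of -0.21 ± 0.04 (adjusted p = 0.00012). In WT U2OS cells the values were 402, 437 and 416 CPM against 377, 386 and 374 CPM, also without overlap, with a log2 fold change of -0.14 ± 0.07 that missed the threshold (adjusted p = 0.12). LSS, the lanosterol synthase, had log2 fold changes of -0.05 ± 0.08 (adjusted p = 0.63) and -0.01 ± 0.05 (adjusted p = 0.9), with 95% intervals of -0.24 to 0.14 and -0.11 to 0.09. Without WT untreated replicate 1, the library that stood apart, 6 of the 8 genes rose and SREBF2 fell in WT U2OS cells, where 66.4% of all genes tested passed in either direction. Among them were FDFT1 at 0.07 (adjusted p = 0.049), INSIG1 at 0.18 (adjusted p = 0.00024) and SREBF2 at -0.17 (adjusted p = 1e-05). The part of that library in the WT counts was measured and the source of its difference was not tested.

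The response along the rest of the pathway was uneven in the treated U2OS cells. SC5D, a late sterol desaturase, rose by a log2 of 0.42 ± 0.07 (adjusted p = 0.0023) and 0.67 ± 0.06 (adjusted p = 5.8e-10). Other enzymes fell. ACAT2, which supplies acetoacetyl-CoA just before HMGCS1, showed -1.31 ± 0.08 (adjusted p = 1.2e-05) and -1.10 ± 0.05 (adjusted p = 4.2e-15). TM7SF2, a sterol reductase, showed -1.11 ± 0.18 (adjusted p = 0.0016) and -0.99 ± 0.08 (adjusted p = 1.5e-10). Of the 14 other synthesis enzymes described, 1 rose and 4 fell in WT, and 5 rose and 4 fell in ID3-KO cells, with medians of 0.02 and 0.04. SC5D was chosen for naming after its values were seen.

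**Figure D2:**
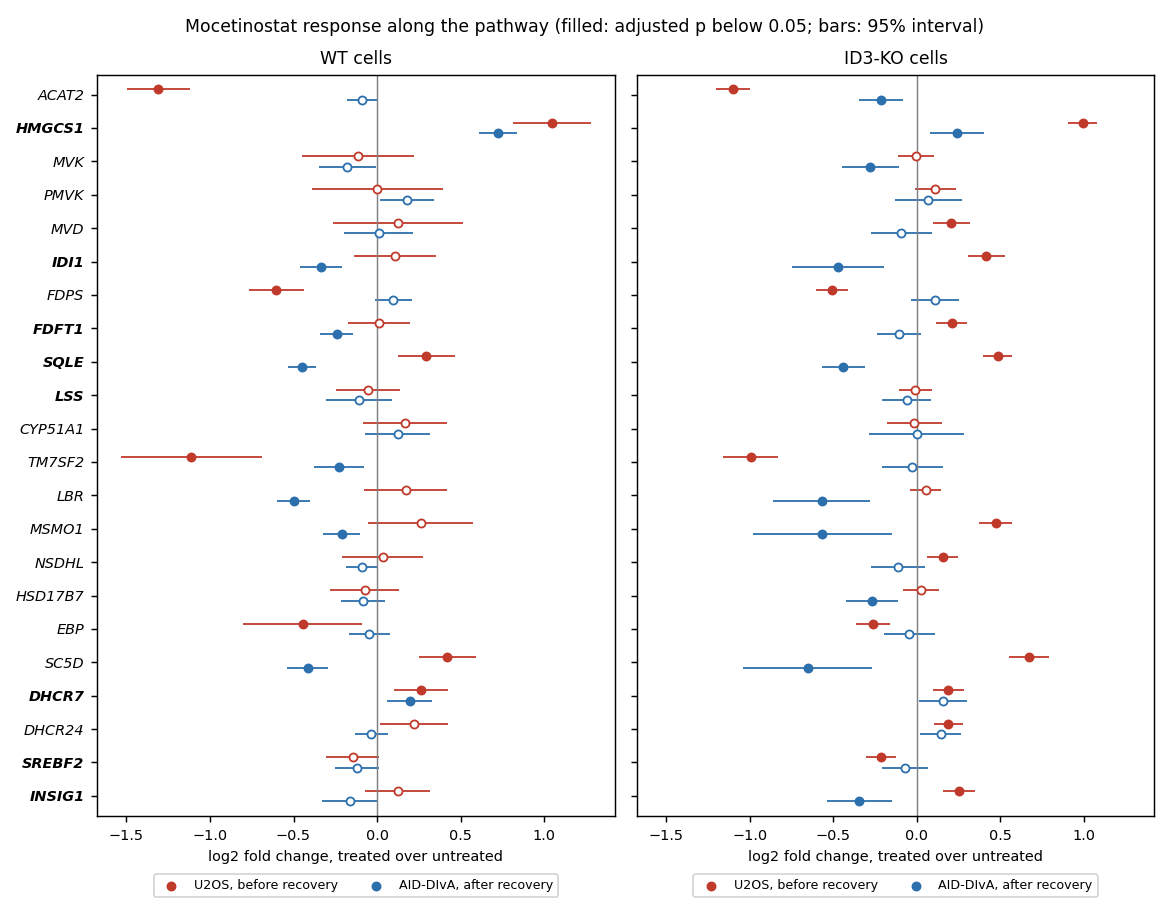
Log2 fold change of treated over untreated cells (horizontal axis) for 22 genes ordered by their place in the pathway (vertical axis, the 8 genes described here in bold), in WT (left) and ID3-KO (right) cells. Points are edgeR estimates with 95% intervals, filled where the adjusted p is below 0.05. Before recovery (red) HMGCS1 is above 0 and ACAT2 and TM7SF2 below it. After recovery (blue) SQLE and IDI1 lie below 0 in both genotypes and HMGCS1 lies above it.

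After recovery, in AID-DIvA cells, HMGCS1 was raised while several other enzymes lay below their untreated level. In WT cells 2 of the 8 genes rose, HMGCS1 and DHCR7, and 3 fell, SQLE, IDI1 and FDFT1, where 23.9% of all genes tested rose and 23.0% fell. In ID3-KO cells HMGCS1 rose, and 3 fell, SQLE, IDI1 and INSIG1, where 20.2% of all genes rose and 19.9% fell. The median log2 fold change over the 8 genes was -0.14 in WT and -0.09 in ID3-KO cells, beside 0.00 and -0.02 over all genes tested. All 8 values lay between -0.47 and 0.72, while 7.38% of all genes in WT and 7.46% in ID3-KO cells were called beyond a log2 of 1.

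HMGCS1 was counted at 343, 345 and 360 CPM in untreated and at 626, 536 and 542 CPM in treated and recovered WT AID-DIvA cells. In ID3-KO AID-DIvA cells it was counted at 366, 364 and 330 CPM untreated and at 383, 433 and 435 CPM after recovery. Groups did not overlap in either genotype, with a gap of 176 CPM in WT and of 17.3 CPM in ID3-KO cells. The log2 fold change was 0.72 ± 0.05 in WT (adjusted p = 1.4e-07) and 0.24 ± 0.07 in ID3-KO cells (adjusted p = 0.026). The ID3-KO call was lost without treated replicate 2 (0.20, adjusted p = 0.11), without treated replicate 3 (0.22, adjusted p = 0.052), without untreated replicate 2 (0.25, adjusted p = 0.064) and without untreated replicate 3 (0.20, adjusted p = 0.078). Without treated replicate 1, the library that stood apart, the value was 0.32 (adjusted p = 0.00044), and in WT cells it was 0.65 (adjusted p = 5.5e-19).

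SQLE fell in both genotypes after recovery. It was counted at 308, 304 and 298 CPM untreated and at 216, 219 and 220 CPM recovered in WT cells. In ID3-KO cells it was counted at 334, 337 and 313 CPM untreated and at 235, 246 and 245 CPM recovered. The log2 fold change was -0.45 ± 0.04 (adjusted p = 6.8e-07) and -0.44 ± 0.06 (adjusted p = 0.00027), and every recovered library lay below every untreated one. IDI1 fell by a log2 of 0.34 ± 0.06 in WT (adjusted p = 0.00031) and 0.47 ± 0.12 in ID3-KO cells (adjusted p = 0.013). Its 3 recovered ID3-KO libraries were spread from 19.3 to 27.5 CPM, below the 30.3 to 34.98 CPM of untreated cells, and the call was lost without untreated replicate 1 (-0.40, adjusted p = 0.058).

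FDFT1 fell in WT cells, from 363, 357 and 347 CPM to 282, 293 and 313 CPM (log2 -0.24 ± 0.05, adjusted p = 0.00064). In ID3-KO cells its groups overlapped, at 350, 359 and 346 CPM untreated and 357, 318 and 308 CPM recovered (log2 -0.10 ± 0.06, adjusted p = 0.19). The library that overlapped was treated replicate 1, and without it FDFT1 showed -0.15 (adjusted p = 0.036). INSIG1 fell in ID3-KO cells, from 50.4, 47.1 and 47.2 CPM to 34.0, 39.1 and 40.8 CPM (log2 -0.34 ± 0.09, adjusted p = 0.011), a call lost without untreated replicate 1 (-0.30, adjusted p = 0.058). In WT cells INSIG1 showed -0.16 ± 0.08 (adjusted p = 0.091), with groups that did not overlap, -0.24 (adjusted p = 0.017) without treated replicate 3 and -0.06 (adjusted p = 0.23) without treated replicate 1, the library that stood apart. Without ID3-KO treated replicate 1 the INSIG1 value in ID3-KO cells was -0.26 (adjusted p = 0.0049).

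DHCR7 was, besides HMGCS1, the gene called higher in recovered WT cells. It was counted at 217, 208 and 203 CPM untreated and at 211, 246 and 252 CPM recovered in WT cells, a log2 fold change of 0.20 ± 0.06 (adjusted p = 0.02). The groups overlapped through treated replicate 1, without which the value was 0.28 ± 0.03 (adjusted p = 6.1e-09). The call was lost without treated replicate 2 (adjusted p = 0.094), treated replicate 3 (0.073), untreated replicate 2 (0.061) or untreated replicate 3 (0.09), at log2 values of 0.15 to 0.19. In ID3-KO cells DHCR7 showed 0.16 ± 0.06 (adjusted p = 0.077), and 0.22 (adjusted p = 0.044) without treated replicate 3. LSS and SREBF2 passed the threshold in neither genotype, with log2 fold changes of -0.11 and -0.06 for LSS and of -0.12 and -0.07 for SREBF2. SREBF2 in WT cells showed -0.17 (adjusted p = 0.033) without treated replicate 3 and -0.04 (adjusted p = 0.28) without treated replicate 1, and LSS showed 0.01 (adjusted p = 0.86) without the latter.

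Without both treated replicate 1 libraries, an alternative chosen after the data were seen and fitted over the 10 remaining AID-DIvA libraries, 44.0% of all genes passed in WT and 46.1% in ID3-KO cells, in either direction. There 2 of the 8 genes rose and 3 fell in WT cells, and 1 rose and 5 fell in ID3-KO cells, where SREBF2 at -0.11 (adjusted p = 0.04) and FDFT1 at -0.15 (adjusted p = 0.0052) joined the others. With all libraries, 4 of the 14 other synthesis enzymes fell in WT and 6 in ID3-KO cells, and the remaining 10 and 8 did not pass the test. The 5 proliferation genes all fell as well, and their summed level was 3069 to 3117 CPM untreated and 1939 to 1977 CPM recovered in WT, and 2557 to 2837 against 1342 to 1452 CPM in ID3-KO cells. In U2OS cells that sum was 1546 to 2023 CPM untreated and 1541 to 1558 CPM treated in WT, and 1911 to 1932 against 1379 to 1500 CPM in ID3-KO cells. The part of proliferation in the changes of the 8 genes was not tested, and in such bulk samples fewer cells of a type and less RNA per cell cannot be told apart.

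The difference between both stages was tested directly, as the treatment effect in U2OS before recovery minus that in AID-DIvA after recovery. In WT cells 4 of the 8 genes had a higher effect before recovery, HMGCS1, SQLE, IDI1 and FDFT1, where 21.7% of all genes tested did and 20.5% had a lower one. In ID3-KO cells these 4 and INSIG1 did, 5 of 8, where 27.7% of all genes did and 24.8% had a lower effect. SQLE differed by a log2 of 0.75 ± 0.08 in WT (adjusted p = 7.9e-06) and 0.93 ± 0.07 in ID3-KO cells (adjusted p = 1.8e-09), with the sign of its response turned over between the stages. IDI1 differed by 0.45 ± 0.13 (adjusted p = 0.011) and 0.90 ± 0.13 (adjusted p = 1e-05). HMGCS1 differed by 0.33 ± 0.12 (adjusted p = 0.036) and 0.76 ± 0.08 (adjusted p = 2.3e-07).

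SREBF2, LSS and DHCR7 did not pass the test, at -0.02, 0.06 and 0.07 in WT and -0.14, 0.06 and 0.04 in ID3-KO cells. For none of the 8 genes was the effect lower before recovery by edgeR, by DESeq2 or at an unadjusted p below 0.05. All differences of the 8 were below a log2 of 1, where 15.2% of all genes in WT and 17.5% in ID3-KO cells were called beyond it. In WT cells the call for FDFT1 (0.26 ± 0.10, adjusted p = 0.043) was lost without any one of 10 of the 12 libraries (adjusted p up to 0.11, log2 0.20 to 0.28), the exceptions being treated and recovered replicate 3 and untreated U2OS replicate 1. The WT call for HMGCS1 was lost without treated and recovered replicate 2 or 3, any untreated AID-DIvA replicate, or treated U2OS replicate 3 (adjusted p up to 0.1, log2 0.28 to 0.34). INSIG1 in WT cells (0.29 ± 0.13, adjusted p = 0.074) showed 0.35 without untreated U2OS replicate 1 (adjusted p = 0.0045) and 0.36 without treated and recovered replicate 3 (adjusted p = 0.045).

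Whether the loss of ID3 altered the response was tested as an interaction within each cell line. After recovery HMGCS1 was the only gene of the 8 to pass, with a response in ID3-KO cells lower than in WT cells by 0.47 on the log2 scale (value -0.47 ± 0.09, 95% interval -0.67 to -0.27, adjusted p = 0.019). Of all genes tested, 0.762% had a higher and 0.451% a lower response in ID3-KO cells. Treated WT cells held 536 to 626 CPM and treated ID3-KO cells 383 to 435 CPM, while untreated cells of both genotypes lay between 330 and 366 CPM. The adjusted p crossed the threshold without WT untreated replicate 1 (-0.46, 0.071), WT untreated replicate 2 (-0.47, 0.067), ID3-KO untreated replicate 1 (-0.44, 0.051) or ID3-KO untreated replicate 2 (-0.46, 0.058). Without both treated replicate 1 libraries the value was -0.34 ± 0.06 (adjusted p = 0.0023).

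For the other 7 genes the interaction after recovery lay between -0.17 (INSIG1, adjusted p = 0.64) and 0.15 (FDFT1, adjusted p = 0.48). SQLE had the narrowest interval, 0.02 with a 95% interval of -0.12 to 0.16, and IDI1 the widest, -0.13 with -0.43 to 0.18. In U2OS cells before recovery the HMGCS1 interaction was -0.05, with a 95% interval of -0.28 to 0.18 (adjusted p = 0.88). None of the 8 genes passed there by edgeR or DESeq2, where 1.10% of all genes tested had a higher and 1.06% a lower response. Interactions beyond a log2 of 1 were called for 0.31% of all genes after and 0.68% before recovery. At an unadjusted p below 0.05 the response of 3 genes was higher in ID3-KO cells, IDI1 at 0.31, FDFT1 at 0.20 and SQLE at 0.19 (adjusted p = 0.26, 0.36 and 0.3). Without WT untreated replicate 1 these values were 0.20 ± 0.08 for IDI1 (adjusted p = 0.11), 0.14 ± 0.06 for FDFT1 (adjusted p = 0.13) and 0.21 ± 0.06 for SQLE (adjusted p = 0.014), and 9.03% of all genes passed in either direction. Whether the HMGCS1 interaction after recovery differed from that before recovery was not tested.

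**Figure D3:**
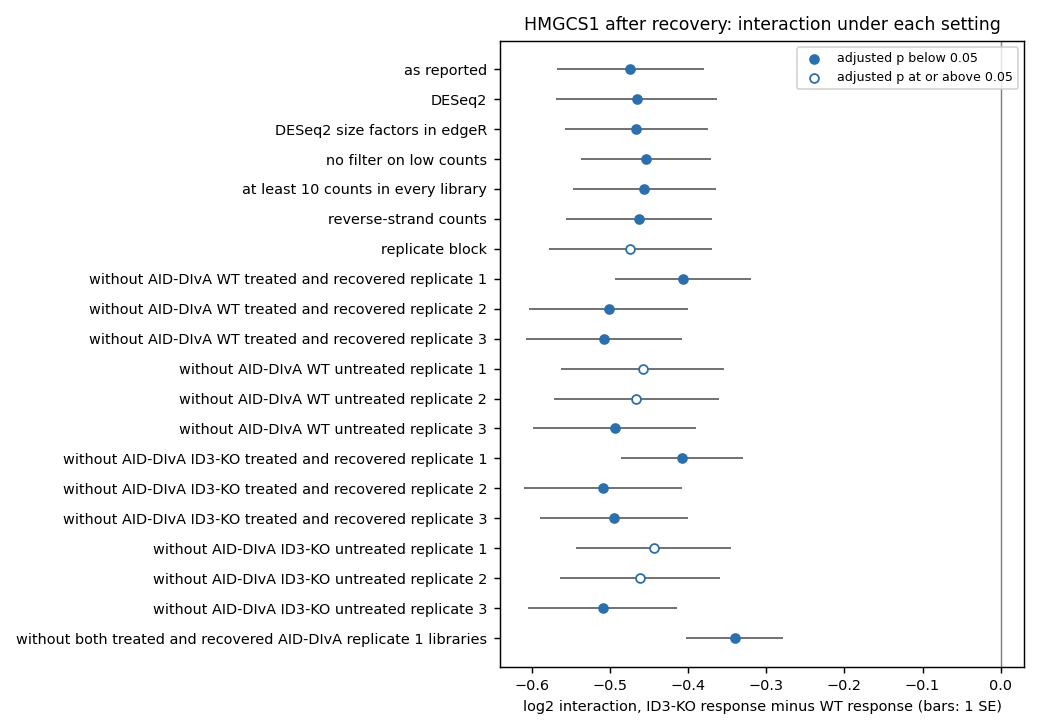
Difference between the HMGCS1 response of ID3-KO and WT AID-DIvA cells after recovery (horizontal axis, log2, bars 1 SE) under the reported setting and each alternative (vertical axis). Filled points have an adjusted p below 0.05. All values lie between -0.51 and -0.34, and the adjusted p is above 0.05 in 5 of the 19 alternatives.

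In untreated cells the widest genotype difference among the 8 genes was in LSS, the cyclase that closes the sterol rings of lanosterol. LSS lies on chromosome 21 at 47608055 to 47648738 on hg19. It was counted at 308, 302 and 289 CPM in WT and at 194, 190 and 208 CPM in ID3-KO AID-DIvA cells. In U2OS it was counted at 561, 507 and 481 CPM in WT and at 333, 302 and 313 CPM in ID3-KO cells. Genotypes did not overlap in either line. The log2 difference of ID3-KO from WT was -0.62 ± 0.05 (adjusted p = 8.2e-08) in AID-DIvA and -0.72 ± 0.09 (adjusted p = 0.0017) in U2OS, or 0.652 and 0.609 of the WT level. It passed with every single library left out, between -0.67 and -0.57 in AID-DIvA and between -0.77 and -0.65 in U2OS. Treated cells also held less LSS in ID3-KO than in WT libraries, at 232 to 300 CPM in WT and 180 to 203 CPM in ID3-KO AID-DIvA cells after recovery.

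DHCR7 was higher in ID3-KO AID-DIvA cells. It was counted at 267, 255 and 268 CPM in ID3-KO and at 217, 208 and 203 CPM in WT AID-DIvA cells (log2 0.32 ± 0.05, adjusted p = 3.8e-05). In U2OS it was counted at 411, 390 and 391 CPM in ID3-KO and at 357, 337 and 331 CPM in WT cells, again without overlap, with 0.21 ± 0.07 (adjusted p = 0.089). Without U2OS WT untreated replicate 1 that value was 0.25 ± 0.03 (adjusted p = 1.6e-07). In all, 2 of the 8 genes were higher in ID3-KO AID-DIvA cells, DHCR7 and INSIG1, and LSS was lower, where 18.6% and 18.1% of all genes tested were. In U2OS, LSS and FDFT1 were lower, 2 of 8, where 8.63% of all genes were lower and 6.56% higher. None was higher by edgeR or DESeq2, and at an unadjusted p below 0.05 DHCR7 was. Of all genes, 4.58% in AID-DIvA and 4.26% in U2OS cells were called beyond a log2 of 1.

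**Figure D4:**
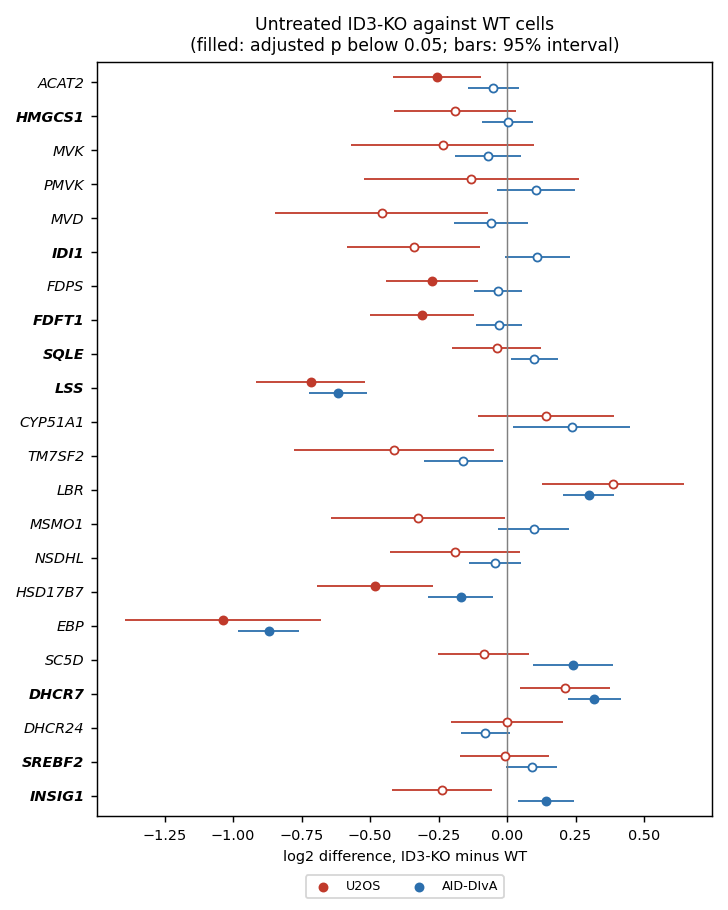
Log2 difference of untreated ID3-KO from WT cells (horizontal axis) for the same 22 genes (vertical axis) in AID-DIvA (blue) and U2OS (red), as edgeR estimates with 95% intervals, filled where the adjusted p is below 0.05. LSS and EBP lie left of 0 in both lines, LSS at -0.62 and -0.72 and EBP at -0.87 and -1.04.

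INSIG1 was higher in ID3-KO AID-DIvA cells (0.14 ± 0.05, adjusted p = 0.029) and lay lower in ID3-KO U2OS cells (-0.24 ± 0.08, adjusted p = 0.086). The AID-DIvA call was lost without any WT replicate (0.14 to 0.15, adjusted p = 0.083, 0.11 and 0.083) and without ID3-KO replicate 1 (0.12, adjusted p = 0.13). Without ID3-KO replicate 2, SREBF2 showed 0.13 (adjusted p = 0.034), and without ID3-KO replicate 3, SQLE showed 0.11 (adjusted p = 0.0042) and IDI1 0.14 (adjusted p = 0.016). FDFT1 was lower in ID3-KO U2OS cells, at 395, 413 and 426 CPM against 549, 479 and 495 CPM in WT (log2 -0.31 ± 0.08, adjusted p = 0.041). That call was lost without WT replicate 2 (-0.35, adjusted p = 0.058) or 3 (-0.33, adjusted p = 0.082) and without ID3-KO replicates 1, 2 or 3 (-0.28 to -0.34, adjusted p = 0.19, 0.16 and 0.14).

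Without U2OS WT replicate 1, 5 of the 8 genes were lower in ID3-KO U2OS cells and DHCR7 was higher, where 41.1% of all genes tested passed in either direction, with HMGCS1 at -0.28 (adjusted p = 9.1e-09), IDI1 at -0.23 (adjusted p = 0.00061), FDFT1 at -0.25 (adjusted p = 2.6e-07) and INSIG1 at -0.18 (adjusted p = 0.00064) beside LSS. IDI1 was also called without WT replicate 2 (-0.43, adjusted p = 0.043). EBP, the sterol isomerase, was lower in ID3-KO cells of both lines, at -0.87 ± 0.05 (adjusted p = 2.8e-09) and -1.04 ± 0.15 (adjusted p = 0.0045), and was chosen for naming after its values were seen. Of the 14 other synthesis enzymes, 2 were higher and 2 lower in ID3-KO AID-DIvA cells, and 4 were lower in ID3-KO U2OS cells. Osteoblast lineage markers moved with genotype as well. Of 6 tested in each line, 4 were lower in ID3-KO AID-DIvA and 5 in ID3-KO U2OS cells, with medians of -0.86 and -0.81. Their summed level, mostly COL1A1, was 1429 to 1546 CPM in WT and 1487 to 1751 CPM in ID3-KO AID-DIvA cells, and 2324 to 2569 against 1654 to 1822 CPM in U2OS cells. After treatment of U2OS cells that sum was 1523 to 1667 CPM in WT and 1059 to 1193 CPM in ID3-KO cells. The part of these markers in the differences of the 8 genes was not tested.

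Of 6 uptake and transport genes, 4 rose and 1 fell before recovery in each genotype, while 2 rose and 3 fell in WT and 2 rose and 2 fell in ID3-KO cells after it. MYLIP, described below, was among the 4 that rose in each genotype before recovery. The list holds genes of different roles, and its counts give no direction of uptake. Over all genes tested, 26.0% rose and 22.9% fell in WT and 35.8% and 34.0% in ID3-KO cells before recovery, and 23.9% and 23.0% in WT and 20.2% and 19.9% in ID3-KO cells after it.

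Genes of cholesterol export responded in the treated U2OS cells too. ABCG1, an exporter, rose by a log2 of 1.17 ± 0.08 in WT (adjusted p = 1.5e-05) and 2.15 ± 0.06 in ID3-KO U2OS cells (adjusted p = 9e-19), from 19.5, 22.0 and 19.7 to 46.5, 45.1 and 46.0 CPM and from 8.05, 8.15 and 8.37 to 37.4, 35.4 and 35.9 CPM. The interaction was 0.98 ± 0.09 (adjusted p = 3e-05), and treated ID3-KO cells remained below treated WT cells. ABCA1, a second exporter, had an interaction of 1.54 ± 0.27 (adjusted p = 0.0082) at low levels of 1.58 to 4.97 CPM in U2OS. It rose in ID3-KO U2OS cells (1.48 ± 0.11, adjusted p = 7e-11) and showed -0.06 ± 0.25 in WT (adjusted p = 0.87). Without WT untreated replicate 1 the WT value was -0.31 ± 0.14 (adjusted p = 0.051) and the interaction 1.79 (adjusted p = 3e-09). MYLIP, counted in the uptake and transport list, is a ubiquitin ligase induced by sterol-sensing nuclear receptors. It rose by 0.52 ± 0.09 in WT (adjusted p = 0.0015) and 1.04 ± 0.06 in ID3-KO cells (adjusted p = 3.4e-13). Its interaction of 0.52 ± 0.10 (adjusted p = 0.012) became 0.49 (adjusted p = 0.051) without ID3-KO untreated replicate 1.

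NR1H2, a sterol-sensing nuclear receptor that drives the exporters, fell by 1.03 ± 0.13 in WT (value -1.03, adjusted p = 0.00051) and showed -0.82 ± 0.05 in ID3-KO U2OS cells (adjusted p = 1.7e-12). Among the 5 genes of efflux and esterification, 2 rose and 2 fell in WT and 3 rose and 2 fell in ID3-KO cells before recovery, and 4 rose in WT and 1 in ID3-KO cells after it. ABCA1 rose in WT AID-DIvA cells after recovery (0.996 ± 0.15, adjusted p = 8.2e-05). With 1 library left out, ABCA1 lay at 0.29 to 0.61 in ID3-KO AID-DIvA cells, called in 1 of 6 fits. ABCG1 lay at 0.63 to 0.78 in WT, called in 6 of 6, and at 0.17 to 0.33 in ID3-KO cells, called in 0. MYLIP lay at -0.27 to -0.20 in WT and -0.28 to -0.12 in ID3-KO cells. The interaction after recovery was called for 0 of the 5 efflux and esterification genes. Without both treated replicate 1 libraries it was called for ABCG1 (-0.57 ± 0.14, adjusted p = 0.022). Of 5 other genes of sterol sensing and SREBP processing, INSIG2 rose in WT U2OS cells (0.75 ± 0.10, adjusted p = 0.00064), 2 rose and 2 fell in ID3-KO U2OS cells, and 1 fell in each genotype after recovery. The highest log2 value among these 5 genes was 0.75 in WT and 0.70 in ID3-KO U2OS cells. INSIG2 was named after its values were seen. Of 8 genes of fatty acid synthesis, 2 rose and 2 fell in WT and 1 rose and 4 fell in ID3-KO U2OS cells, and 2 rose in WT, and 3 rose and 1 fell in ID3-KO AID-DIvA cells. These counts stand beside shares of all genes called, in either direction together, that ranged from 40.1% in ID3-KO AID-DIvA to 69.9% in ID3-KO U2OS cells.

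Across the 24 libraries the 8 genes did not move as 1 block. Pairwise Pearson correlations of their log2 CPM ran from -0.31, for SREBF2 and HMGCS1, to 0.92, for FDFT1 and INSIG1, with a median of 0.56 over 28 pairs, and they share the offset between both cell lines. After subtraction of the group means the range was -0.84, for HMGCS1 and LSS, to 0.93, for LSS and DHCR7, with a median of 0.05 and 14 of 28 pairs below 0. Replicate 1 libraries that stood apart had HMGCS1 and LSS on opposite sides of their partners. In WT untreated U2OS, replicate 1 held 316 CPM of HMGCS1 against 383 and 396, and 561 of LSS against 507 and 481. In recovered WT AID-DIvA it held 626 against 536 and 542, and 232 against 290 and 300. In recovered ID3-KO AID-DIvA it held 383 against 433 and 435, and 203 against 186 and 180. The part of these libraries in the correlations was not tested. These are descriptions over libraries that share groups. Among 15585 other genes with a mean of at least 1 CPM, those most like the average of the 8 over the 24 libraries were ENTPD8 (Pearson r 0.98), EBF4, KNDC1, PLCD1, EPHB6, SCN4B, NUDT18, MAGEH1, HAPLN3 and ASAP3 (0.96). The first of the pathway lists was NSDHL at place 70 (0.93), followed by MVD at place 86 (0.92).

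Several of the 8 genes overlap others on the genome. On the opposite strand lie RP5-821D11.7 at SREBF2, with a median of 328.5 counts, RP11-660L16.2 at DHCR7 (295.5), RP11-297N6.4 at FDFT1 (47), CTD-2636A23.2 at HMGCS1 (26) and IDI2-AS1 at IDI1 (5.5), and AP001468.1 overlaps LSS on its own strand (200). Counts restricted to the reverse strand exceeded those of either strand for HMGCS1 by a median factor of 1.11 and for IDI1 by 1.19, where the other 6 genes gave 0.998 to 1.03. The part of overlapping genes in these ratios was not tested. With the reverse-strand counts the HMGCS1 interaction after recovery was -0.46 ± 0.09 (adjusted p = 0.018).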

How the data were processed

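Total RNA was sequenced from stranded paired-end libraries. The authors used STAR against hg19/GRCh37 and deposited featureCounts counts per gene for each sample, over both strands and for each strand alone. Versions are not given in the sources used here. Counts over both strands were used, and those on the reverse strand served as an alternative. Genes were tested with edgeR 4.0.16 (quasi-likelihood test, TMM scaling, filterByExpr, R 4.3.3) on the 6 libraries of a two-group comparison or the 12 of an interaction, with Benjamini-Hochberg adjustment over all genes tested and a threshold of 0.05. CPM were computed with TMM factors over all 24 libraries, and log2 CPM used a prior count of 1. The test code was run on counts simulated with known changes. These were wider than the changes of the 8 genes, so that run does not check their calls. Named besides the 8 genes were ID3, listed pathway genes beyond a log2 fold change of 1 in a treatment comparison, overlapping genes and the 10 most similar genes. Cell type markers are named with their levels, and SC5D, EBP, INSIG2, NPC1, NSDHL and MVD were chosen after their values were seen. Some listed genes are not reported here and were left out of the list counts. The genes and lists were chosen with earlier results of these data known. Alternatives were DESeq2 1.42.0, its size factors, other filters on low counts, a replicate block, all 4 groups of a cell line in 1 fit and leaving out libraries. Replicates are biological according to the design text, and p-values cover the spread between these samples. Depth was 37878751 to 76906266 counted reads.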

Additional observations from a re-analysis of the deposited data

Results flagged for a closer look

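The results below stood out because the effect of the treatment differed between genotypes or between stages by a test of that difference. The genotype by treatment interaction was called after recovery for HMGCS1 (-0.47 ± 0.09, adjusted p = 0.019, over alternatives 1.8e-05 to 0.071) and, outside the naming rule and chosen after its values were seen, for NPC1, which exports cholesterol from lysosomes (-0.39 ± 0.09, adjusted p = 0.038). NPC1 was at 81.4 to 82.5 CPM untreated and 112 to 137 CPM recovered in WT, and at 80.4 to 87.8 against 92.5 to 99.8 CPM in ID3-KO AID-DIvA cells, and its call was lost without WT treated replicate 3 (-0.41, adjusted p = 0.057), WT untreated replicate 1, 2 or 3 (-0.39, -0.39 and -0.38, each adjusted p = 0.11), ID3-KO treated replicate 2 (-0.42, adjusted p = 0.06) or 3 (-0.34, adjusted p = 0.089) and ID3-KO untreated replicate 1 (-0.39, adjusted p = 0.1) or 2 (-0.36, adjusted p = 0.11). The NPC1 call was also lost with all libraries kept. Its value was -0.37 (adjusted p = 0.052) with at least 10 counts required in every library, and -0.39 (adjusted p = 0.082) with the replicate block. Before recovery the interaction was called for MYLIP (0.52), ABCA1 (1.54) and ABCG1 (0.98).

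The effect before recovery minus that after it was called in WT cells for HMGCS1 (0.33), SQLE (0.75), IDI1 (0.45) and FDFT1 (0.26), and in ID3-KO cells for HMGCS1 (0.76), SQLE (0.93), IDI1 (0.90), FDFT1 (0.32) and INSIG1 (0.60), all on the log2 scale. Stage and cell line coincide and cannot be told apart.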

How the results depend on the processing

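Over the settings that kept all libraries, the 228 called values of the 8 genes kept their direction and 10 lost their call, while 7 of 300 uncalled values became called. With libraries left out, 274 called values kept their direction, 46 lost their call, and 21 of 422 uncalled values became called. With a log2 value beyond 1 required, 1 of the 8 genes was higher in WT U2OS before recovery and 0 in every other comparison, in either direction. With no filter on low counts, 5 were lower in WT AID-DIvA after recovery and 1 in untreated ID3-KO U2OS cells. With all 4 groups of a line in 1 fit, 1 was lower in treated WT U2OS, 1 higher in untreated ID3-KO AID-DIvA, and 1 higher and 4 lower in untreated ID3-KO U2OS cells.

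Replicate numbers did not pair the samples: correlations of same-numbered deviations ran from -0.16 to 0.10 and in no comparison were all above 0.1. With the replicate block as a term, 0 were higher in ID3-KO AID-DIvA after recovery (HMGCS1 0.24, adjusted p = 0.066), 1 was higher in untreated ID3-KO AID-DIvA, 1 lower in untreated ID3-KO U2OS, 0 lower for the interaction after recovery (HMGCS1 adjusted p = 0.058), and 2 higher for the WT stage difference.

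With 1 library left out, counts higher and lower were 1 to 2 and 3 to 5 for WT AID-DIvA after recovery, 0 to 1 and 1 to 4 for ID3-KO AID-DIvA, 1 to 6 and 0 to 1 for WT U2OS before recovery, 6 and 1 for ID3-KO U2OS, 1 to 4 and 1 for untreated AID-DIvA, and 0 to 1 and 1 to 5 for untreated U2OS. For the interaction 0 to 1 were lower after and 0 to 1 higher before recovery, and for the stage 2 to 5 (WT) and 5 (ID3-KO) were higher. Without both treated AID-DIvA replicate 1 libraries, 5 were lower in ID3-KO cells after recovery.

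Over all genes, calls moved by more than 1.5 times from 3132 to 5658 with 4 groups in 1 fit to 8627 without WT replicate 1 and to between 1266 and 1295 without an ID3-KO library (untreated U2OS), from 258 to 465 with DESeq2, 613 with no filter, 157 with the block, between 122 and 160 without any 1 of 6 libraries (all untreated WT ones, recovered ID3-KO replicate 2, and untreated ID3-KO replicates 1 and 2) and 549 without both replicate 1 libraries (interaction after recovery), and from 488 to 853 with DESeq2, 775 with no filter, 2091 without WT untreated replicate 1 and between 257 and 317 without any treated library or ID3-KO untreated one (interaction before recovery). The causes were not tested. Each of the 8 genes had at least 679 counts in every library, and the effect of depth was not tested.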
